A study of Mus musculus with 10 samples.

Results

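The replication-dependent histone genes of the mouse were taken as the protein-coding genes whose symbols begin with Hist1h, Hist2h, Hist3h or Hist4h, which gave 67 of the 55536 genes in the count table. They comprised 6 genes of class H1, 18 of class H2A, 18 of class H2B, 12 of class H3 and 13 of class H4. The 54 Hist1 genes lay on chromosome 13, the 10 Hist2 genes on chromosome 3, the 2 Hist3 genes on chromosome 11 and Hist4h4 on chromosome 6. The pseudogenes Hist1h2aj, Hist1h2al and Hist3h2bb-ps carry the same prefixes and were left out.

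Messenger RNA was measured in 10 bulk libraries of live female germ cells (oocytes) sorted for green fluorescence from gonads of C57BL/6 fetuses at E14.5. In every cross both parents carried 2 copies of the Oct4-EGFP transgene, in which the Pou5f1 locus drives the fluorescent protein, and 1 copy of a Taf4b-deficiency mutation. The product of Taf4b is found mainly in gonads and is part of TFIID, which places RNA polymerase II at promoters. There were 4 Taf4b-deficient libraries, which the labels call infertile, and 4 Taf4b-heterozygous and 2 Taf4b-wildtype libraries, which they call fertile. The part of Taf4b that was removed was not given in the sources used here. Litters of January 29, 2019 gave deficient 1 and 2, heterozygous 4 and wildtype 1. Those of March 1 gave deficient 3 and wildtype 2, and those of March 7 gave deficient 4 and heterozygous 1, 2 and 3. The labels do not say that libraries came from separate animals, so p-values reflect sample-to-sample spread, part of which may be technical.

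Histone genes of these families supply the nucleosome cores (H2A, H2B, H3 and H4) and the linker histones (H1) that package newly copied DNA, and they are transcribed mainly in S phase. Most lack introns. Their mRNAs usually end in a conserved stem-loop instead of a poly(A) tail, and the stem-loop binding protein SLBP acts there in processing, translation and decay. Germ cells of the fetal ovary leave mitosis and pass through a last round of DNA replication before meiotic prophase, so histone mRNA in this tissue is tied to both divisions and meiotic entry. How a library recovers mRNA without a poly(A) tail depends on its preparation, about which the sources used here say nothing.

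The stem-loop is shown because it is the feature that the members share and the rule did not use. It was searched in the longest coding transcript of each member (GENCODE M21, GRCm38), and 52 members had at least 16 bases past the stop codon. In 45 of these a stem-loop was found, beginning 22 to 59 bases past the stop codon (median 32). Each matched every position of the histone pattern searched for, in which some positions allow several bases. The forms below are variants that this pattern allows. In each sequence below the capitals mark the pairing arms and the lower case marks the loop, written as DNA from 5′ to 3′. Form A was held by 25 members of classes H1, H2A, H2B and H3 and none of H4, Hist1h1e and Hist1h2bg among them. Form B was held by 7 members, all H4, with Hist1h4d among them. Form C was held by 6 members, including Hist1h3c and Hist1h3e. Form D was held by Hist1h4i and Hist2h4, and form E by Hist1h4b and Hist1h4j. Hist1h4a, Hist1h3g and Hist2h2ac had 1 form each.
Form A: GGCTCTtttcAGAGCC
Form B: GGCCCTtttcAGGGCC
Form C: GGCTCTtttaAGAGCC
Form D: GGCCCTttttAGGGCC
Form E: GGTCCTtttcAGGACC
Hist1h4a: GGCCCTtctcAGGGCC
Hist1h3g: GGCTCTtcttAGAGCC
Hist2h2ac: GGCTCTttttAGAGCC
Annotated transcripts of 23 members ran more than 100 bases beyond the stem-loop, and that of Hist1h4d ran 770 bases beyond it.

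Promoter windows of 250 bases before to 50 bases after the start were held by the RefSeq table (GRCm38.p6) for 62 members, and Hist1h3a, Hist1h3f, Hist1h2bc, Hist2h2be and Hist2h4 had none. Motifs were read on both strands. TATAAA was in 56.5% of the members' windows, against 13.6% of all 32851 windows. CCAAT was in every window of H1, H2A, H2B and H3 but in 3 of 12 of H4, against 37.4% of all windows. GGGCGG was in 9 of 12 H4 windows and 1 of 16 H2B windows, against 35.7% of all. AAACACA was in 5 of 6 H1 windows, against 7.18% of all, and ATTTGCAT was in 7 of 18 H2A and 6 of 16 H2B windows, against 1.74% of all. No motif holds another on either strand, and a match describes the letters and not a bound site. The windows of Hist1h1e, Hist1h3i and Hist1h4d, which hold the most reads in H1, H3 and H4, and of Hist1h2bg are printed because the genotype and Lars2 results below turn on them. Capitals mark any of the 5 motifs on either strand. The Hist1h2bg window also holds the start of Hist1h2ae, which is transcribed the other way from 176 bases off. The RefSeq starts lay 30, 27, 0 and 4 bases from the GENCODE starts in the order printed.
Hist1h4d, chr13:23581318-23581617, plus strand: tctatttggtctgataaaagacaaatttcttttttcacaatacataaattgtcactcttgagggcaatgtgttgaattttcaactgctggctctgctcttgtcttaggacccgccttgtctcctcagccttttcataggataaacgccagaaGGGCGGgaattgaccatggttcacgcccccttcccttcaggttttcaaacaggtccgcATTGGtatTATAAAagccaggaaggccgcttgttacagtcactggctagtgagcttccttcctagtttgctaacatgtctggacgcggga
Hist1h3i, chr13:21783348-21783647, minus strand: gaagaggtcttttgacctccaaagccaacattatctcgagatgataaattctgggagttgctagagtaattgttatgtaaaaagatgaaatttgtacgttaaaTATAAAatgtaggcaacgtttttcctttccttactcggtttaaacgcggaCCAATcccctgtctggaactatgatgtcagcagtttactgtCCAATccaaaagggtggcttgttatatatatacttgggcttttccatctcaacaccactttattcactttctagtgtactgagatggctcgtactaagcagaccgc
Hist1h1e, chr13:23622509-23622808, minus strand: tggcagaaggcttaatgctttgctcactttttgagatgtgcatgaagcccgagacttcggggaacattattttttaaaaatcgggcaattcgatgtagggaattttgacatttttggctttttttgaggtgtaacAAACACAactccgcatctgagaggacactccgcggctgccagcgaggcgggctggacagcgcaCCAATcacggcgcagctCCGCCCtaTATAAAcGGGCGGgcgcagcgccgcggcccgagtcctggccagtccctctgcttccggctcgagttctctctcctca
Hist1h2bg, chr13:23571150-23571449, plus strand: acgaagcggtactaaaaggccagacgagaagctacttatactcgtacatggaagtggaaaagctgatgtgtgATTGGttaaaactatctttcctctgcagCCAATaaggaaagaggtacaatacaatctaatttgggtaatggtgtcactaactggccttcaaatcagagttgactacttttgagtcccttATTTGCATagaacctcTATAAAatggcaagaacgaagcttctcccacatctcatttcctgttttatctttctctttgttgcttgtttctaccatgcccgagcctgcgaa

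Library totals ran from 28949924 to 44166320 reads. Taf4b stood at 56.1 to 64.9 CPM in deficient oocytes, 144 to 234 CPM in heterozygous oocytes and 152 and 207 CPM in wildtype oocytes, so the deficient libraries did not overlap the others. CPM here are read counts per 1000000 reads in tested genes, scaled by TMM. The germ cell markers Dazl, Ddx4, Pou5f1, Stra8, Mael, Dppa5a, Sycp3 and Tex101 summed to 4031 to 6416 CPM in each library. Markers of pregranulosa cells summed to 11.7 to 34.5 CPM, those of macrophages and blood to 7.66 to 25.3 CPM, and those of endothelial and stromal cells to 69.1 to 383 CPM. Pecam1, which germ cells also express, gave most of the last sum. Meiotic stage differed within genotypes. A stage score, the mean log2 CPM of 20 meiotic recombination genes minus that of 19 pluripotency and early germ cell genes, stood at -0.27, 0.73, -2.18 and -0.69 in deficient 1 to 4. It stood at -2.15, 1.57, 1.31 and 1.20 in heterozygous 1 to 4 and at -0.51 and -0.11 in the wildtype libraries. Lars2, which encodes the mitochondrial leucyl-tRNA synthetase and whose locus can collect reads of ribosomal RNA, stood at 2026 CPM in deficient 2, 1136 CPM in deficient 4 and 634 CPM in heterozygous 3. It stood at 12026 to 16988 CPM in the other 7 libraries.

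Of the 67 members, 56 had enough reads to be tested among 20317 genes. The tested members held 95 to 32354 reads each over the 10 libraries. The other 11 were Hist1h1t, Hist1h2aa, Hist1h2af, Hist1h2br, Hist2h2aa1, Hist2h2aa2, Hist2h2ab, Hist2h2bb, Hist2h3b, Hist2h3c1 and Hist2h4, with 0 to 67 reads. Of these, 5 had 0 reads in every library (Hist2h2aa1, Hist2h2aa2, Hist2h2bb, Hist2h3b and Hist2h3c1), which allows 0.066 to 0.101 CPM depending on the library, for counting error only. In those 5, every stretch of 75 bases of the transcript also occurs in another transcript, and whether this set their count was not tested. In 31 members most such stretches were shared and in 5 none was (Hist1h1a, Hist1h1b, Hist1h1t, Hist2h2be and Hist2h4). Values of members with shared stretches are therefore uncertain between near-identical copies. The strand setting of the counting was not given, and 21 members overlap an exon of a gene on the opposite strand and 7 one on the same strand, so those reads cannot be told apart either.

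H2A genes had the highest deposited TPM (transcripts per 1000000, a level per transcript length). Hist1h2ap (chromosome 13, 21833026 to 21833507, minus strand, 1 exon) stood at 770, 878, 948 and 653 TPM in deficient oocytes, 1036, 655, 740 and 747 TPM in heterozygous oocytes and 933 and 866 TPM in wildtype oocytes. It encodes a core H2A, and its genotypes overlapped throughout by TPM. By CPM its deficient libraries lay below both wildtype libraries, as given below. Hist1h2ao followed at 531, 667, 691 and 474 TPM in deficient oocytes, 773, 423, 540 and 539 TPM in heterozygous oocytes and 689 and 651 TPM in wildtype oocytes. Hist1h2ap was higher than Hist1h2ao in all 10 libraries, although their ranges over libraries overlapped. Hist1h2ah averaged 176 ± 71.3 TPM, Hist1h2ag 171 ± 64.2, Hist1h4d 134 ± 62.2, Hist1h2ae 117 ± 28.0 and Hist1h3i 55.8 ± 30.2 TPM (SD, n = 10 libraries). In the order of the 20 highest members, the ranges of neighbours overlapped except between Hist1h2ao and Hist1h2ah. The highest H2B genes were Hist1h2bj at 42.3 ± 13.1 TPM and Hist1h2bk at 33.0 ± 5.52 TPM, the highest H1 gene was Hist1h1b at 31.2 ± 8.15 TPM, and Hist1h3c stood at 29.7 ± 10.3 TPM (SD, n = 10). In all 28 members reached 10 TPM, 6 reached 100 TPM and 11 lay under 1 TPM.

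**Figure D1:**
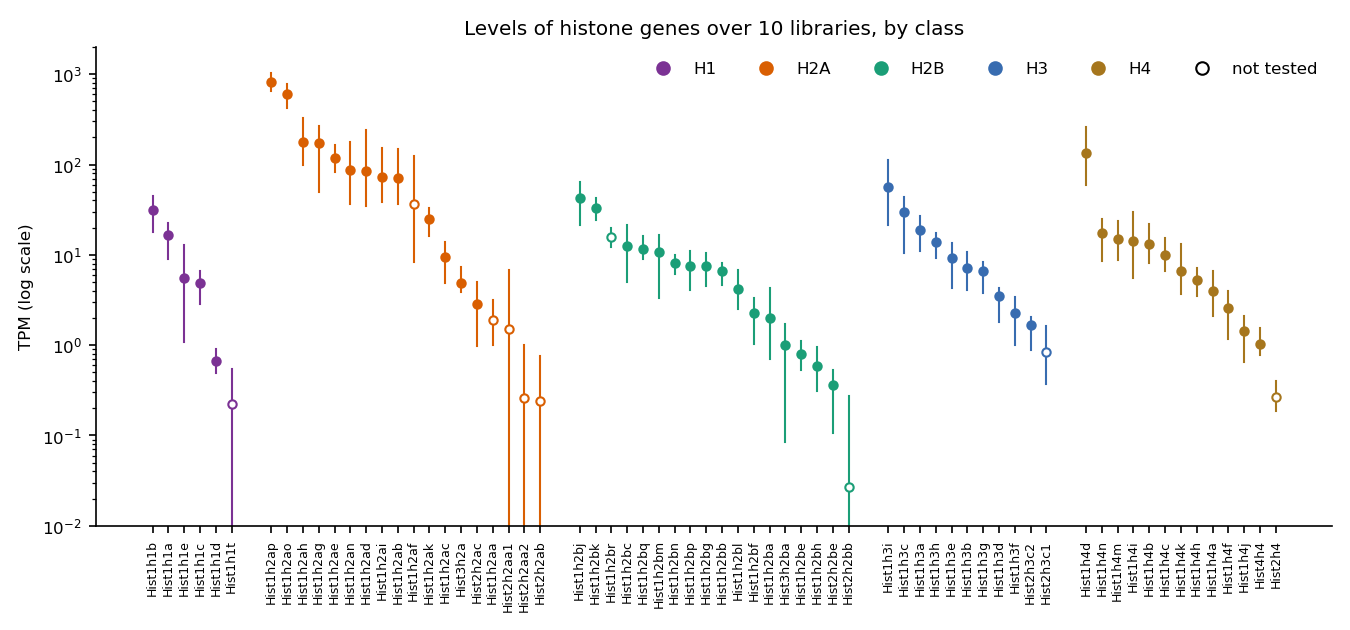
Deposited TPM of each member by class on a log axis, with the mean over 10 libraries as a point and the lowest to highest library as a line cut at the axis; open points were not tested, and Hist2h3b at 0 is not shown. Hist1h2ap and Hist1h2ao stand above all other members, at means of 823 and 598 TPM.

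The share of each class differed between TPM and CPM per kilobase. By deposited TPM, H2A held 79.2% of the members' summed level, H4 7.78%, H2B 5.79%, H3 5.19% and H1 2.06%, and Hist1h2ap with Hist1h2ao held 49.3%. By reads per kilobase of transcript (mean CPM per kb), H2A held 48.0%, H4 21.6%, H3 12.7%, H2B 10.3% and H1 7.41%. Per kilobase Hist1h2ap stood at 88.8, Hist1h4d at 83.3, Hist1h2ao at 54.2, Hist1h2ae at 45.9 and Hist1h3i at 27.3 CPM per kb. The ratio of TPM to CPM per kb had a median of 6.72 in the 26 members with reads in which most stretches were shared, and of 2.38 in the other 36. Hist1h2af showed the gap most plainly, with a mean of 36.7 TPM and 0.0897 CPM. Why the scales differ was not tested, and CPM, which come from the counts, are used for the comparisons.

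The testis histone genes had few reads. Hist1h1t, the testis linker histone, had 7, 8, 8 and 2 reads in deficient oocytes, 1, 4, 1 and 2 in heterozygous oocytes and 0 and 3 in wildtype oocytes. Hist1h2aa, the testis H2A, had 7, 9, 6 and 7 reads in deficient oocytes, 4, 16, 12 and 2 in heterozygous oocytes and 3 and 1 in wildtype oocytes. Hist1h2ba, its H2B partner, was the only one tested, with 13, 9, 4 and 1 reads in deficient oocytes, 3, 27, 11 and 9 in heterozygous oocytes and 10 and 8 in wildtype oocytes. The genotypes overlapped in Hist1h1t and Hist1h2ba. In Hist1h2aa, which had too few reads to be tested, the CPM of all 4 deficient libraries lay within the heterozygous range but above both wildtype libraries. Deficient libraries lay wholly above wildtype, whatever the heterozygous range, in 6.47% of all tested genes.

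Summed reads of the members did not follow genotype. The sum over all members was 368, 361, 365 and 240 CPM in deficient oocytes, 420, 428, 213 and 413 CPM in heterozygous oocytes and 407 and 302 CPM in wildtype oocytes. Deficient 4 and heterozygous 3, both low in Lars2, were the lowest, whereas deficient 2, also low in Lars2, lay with its group. The means were 334 ± 62.5 CPM in deficient oocytes (SD, n = 4), 369 ± 104 CPM in heterozygous oocytes (SD, n = 4) and 355 ± 74.8 CPM in wildtype oocytes (SD, n = 2). In bulk samples fewer cells of a type and less RNA per cell cannot be told apart.

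The genotypes overlapped least in class H2B, a core histone. Its sum was 39.7, 41.6, 40.5 and 32.0 CPM in deficient oocytes, 35.0, 18.6, 23.2 and 22.0 CPM in heterozygous oocytes and 31.8 and 26.3 CPM in wildtype oocytes. Deficient libraries were the higher ones except that heterozygous 1 lay above deficient 4, and the wildtype pair lay below all 4 deficient libraries, wildtype 1 narrowly. The stage score was -2.15 in heterozygous 1, against 1.57, 1.31 and 1.20 in heterozygous 2, 3 and 4. The part of stage in the H2B sum was not tested. Class H2A, its partner in the dimer, summed to 132, 119, 132 and 96.7 CPM in deficient oocytes, 166, 130, 98.4 and 139 CPM in heterozygous oocytes and 172 and 120 CPM in wildtype oocytes, with overlap between all genotypes. The H3 sum was 45.1, 36.4, 43.5 and 28.6 CPM in deficient oocytes, 40.4, 37.0, 14.7 and 33.9 CPM in heterozygous oocytes and 42.4 and 29.9 CPM in wildtype oocytes. Heterozygous 3 alone lay far below the rest. The H4 sum was 105, 129, 107 and 56.6 CPM in deficient oocytes, 127, 190, 50.7 and 162 CPM in heterozygous oocytes and 109 and 85.6 CPM in wildtype oocytes. The linker class H1 summed to 46.9, 35.2, 42.6 and 25.9 CPM in deficient oocytes, 51.3, 52.7, 26.4 and 55.5 CPM in heterozygous oocytes and 52.0 and 40.3 CPM in wildtype oocytes. In H1 and H4 the genotypes overlapped and the lowest 2 libraries were again deficient 4 and heterozygous 3. Within the January litters H2B stood at 39.7 and 41.6 CPM in deficient oocytes, 22.0 CPM in heterozygous oocytes and 31.8 CPM in wildtype oocytes. Within March 7 it stood at 32.0 CPM in the deficient library and 35.0, 18.6 and 23.2 CPM in the heterozygous ones.

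**Figure D2:**
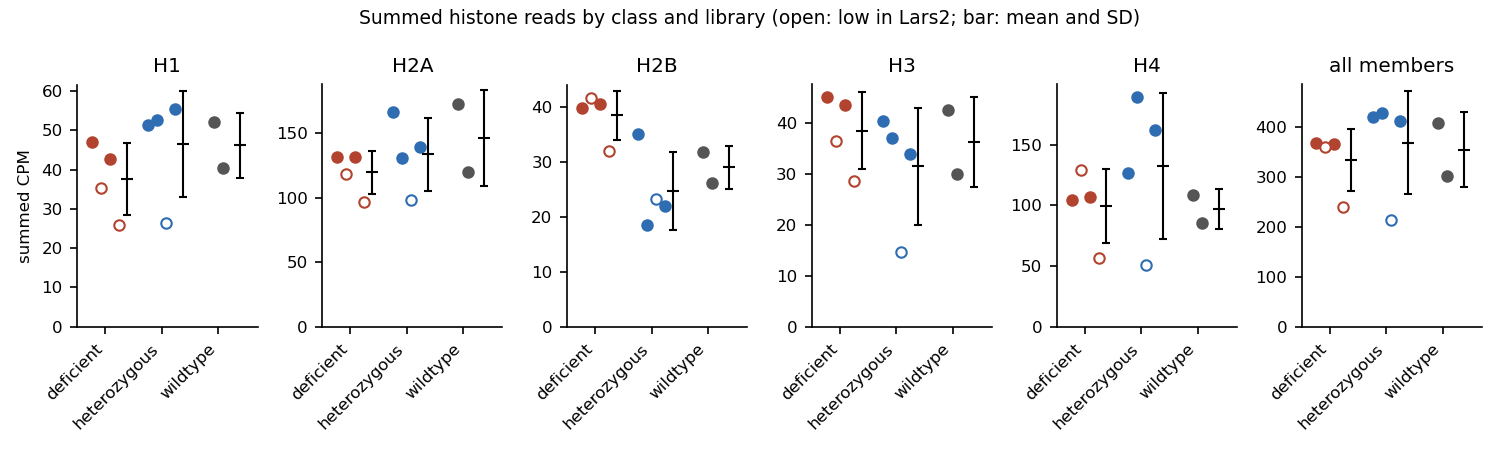
Summed CPM of each histone class and of all members in every library, with genotypes from left to right as deficient, heterozygous and wildtype; open points are the 3 libraries low in Lars2, and the bar and whisker give the mean and SD. The H2B panel has the least overlap between deficient and heterozygous libraries, at means of 38.5 ± 4.37 and 24.7 ± 7.16 CPM.

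Loss of the remaining Taf4b copy was addressed by setting deficient against heterozygous libraries. No member was called at an adjusted p under 0.05 (edgeR quasi-likelihood test, Benjamini-Hochberg over 20317 genes), where 0.0148% of all tested genes were called. At an unadjusted p under 0.05 there were 12 of 56 members, 11 of them higher in deficient libraries, where 11.9% of all tested genes passed and 4.81% did so as higher. DESeq2 called 2 members, Hist1h4i and Hist1h3e, where 0.837% of all tested genes were called. The fitted log2 fold change was above 0 for 37 of 56 members, with a median of 0.37 against -0.05 over all tested genes. By class the median was -0.01 in H1 (2 of 5 above 0), -0.21 in H2A (3 of 13), 0.55 in H2B (14 of 16), 0.71 in H3 (9 of 10) and 0.35 in H4 (9 of 12). The medians of H2B, H3 and H4 were above 0 under every alternative tried. The H2A median was 0.19 without heterozygous 1, and that of H1 was 0.02 with DESeq2-style size factors and 0.05 with upper quartile scaling, so neither class has a firm direction.

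Several measures moved with this comparison. The macrophage and blood list summed to 18.4 to 23.3 CPM in deficient oocytes and 7.66 to 15.97 CPM in heterozygous libraries, with 9 of 10 genes above 0 in log2 fold change and a median of 1.10. None of its genes was called and none was at 0 throughout, but Hba-a1 had 0 reads in deficient 2 and 3. The recombination list had a median of -0.72, with 16 of 20 genes below 0. The part of these differences in the histone values was not tested for the marker list. With the stage score as a covariate the class medians were 0.42 in H2B, 0.54 in H3 and 0.47 in H4. With litter date as a term they were 0.63 in H2B, 0.76 in H3 and 0.18 in H4. Without the 3 libraries low in Lars2 the median over all members was 0.20, with 0.30 in H2B, 0.63 in H3 and 0.31 in H4.

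Hist1h2bg, a core H2B gene (chromosome 13, 23571396 to 23572013, plus strand, 1 exon), held 2.05, 1.52, 1.74 and 2.04 CPM in deficient oocytes, 1.14, 1.12, 0.771 and 0.947 CPM in heterozygous oocytes and 1.45 and 1.10 CPM in wildtype oocytes. All 4 deficient libraries lay above all 6 others. Its log2 fold change was 0.89 against heterozygous (SE 0.25, edgeR adjusted p = 0.346) and 0.71 against the mean of both fertile genotypes (SE 0.23, edgeR adjusted p = 0.904). In all, 8 members had deficient libraries wholly above the heterozygous ones (3.31% of all tested genes did), namely Hist1h1c, Hist1h2bb, Hist1h2bg, Hist1h2bl, Hist1h3e, Hist1h3g, Hist1h3h and Hist4h4. None lay wholly below (2.66% of all tested genes did). Hist1h2bg alone lay wholly above all fertile libraries (0.847% of all tested genes did).

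Among the core H3 genes, Hist1h3e (chromosome 13, 23561534 to 23562369, minus strand) stood at 5.70, 4.43, 6.11 and 4.98 CPM in deficient oocytes, 3.93, 2.57, 1.76 and 2.74 CPM in heterozygous oocytes and 4.92 and 3.44 CPM in wildtype oocytes. The deficient libraries lay above the heterozygous ones and overlapped wildtype 1, with a log2 fold change of 0.95 against heterozygous (SE 0.27, edgeR adjusted p = 0.346; DESeq2 adjusted p = 0.0435). Hist1h3c (chromosome 13, 23744973 to 23745602, minus strand) stood at 12.6, 13.2, 12.4 and 8.80 CPM in deficient oocytes, 10.2, 5.23, 2.71 and 5.62 CPM in heterozygous oocytes and 10.2 and 8.39 CPM in wildtype oocytes. Heterozygous 1 and wildtype 1 overlapped deficient 4, and the log2 fold change against heterozygous was 0.98 (SE 0.34, edgeR adjusted p = 0.379). Hist1h3a had a log2 fold change of 0.84 (SE 0.30, edgeR adjusted p = 0.379). Without heterozygous 1, Hist1h3c, Hist1h3e and Hist1h2bc passed the threshold (log2 fold changes of 1.43, 1.22 and 1.45, edgeR adjusted p = 0.0436, 0.0452 and 0.0452), beside 519 of all tested genes. Heterozygous 1 had the lowest stage score of its group.

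The largest fold change belonged to Hist1h4i, a core H4 gene (chromosome 13, 22040636 to 22041362, minus strand), with 5.38, 11.0, 11.0 and 2.92 CPM in deficient oocytes, 3.73, 1.01, 2.75 and 2.50 CPM in heterozygous oocytes and 4.46 and 5.61 CPM in wildtype oocytes. Deficient 2 and 3 were high and deficient 4 lay below heterozygous 1. Its log2 fold change was 1.60 against heterozygous (SE 0.47, edgeR adjusted p = 0.346; DESeq2 adjusted p = 0.0435), 1.10 against both fertile genotypes (SE 0.42, edgeR adjusted p = 0.904) and -1.01 in heterozygous against wildtype libraries (SE 0.54, edgeR adjusted p = 0.696). Of the H2B genes, Hist1h2bj and Hist1h2bc had log2 fold changes of 0.73 (SE 0.30, edgeR adjusted p = 0.398) and 0.97 (SE 0.36, edgeR adjusted p = 0.379) in deficient against heterozygous libraries.

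**Figure D3:**
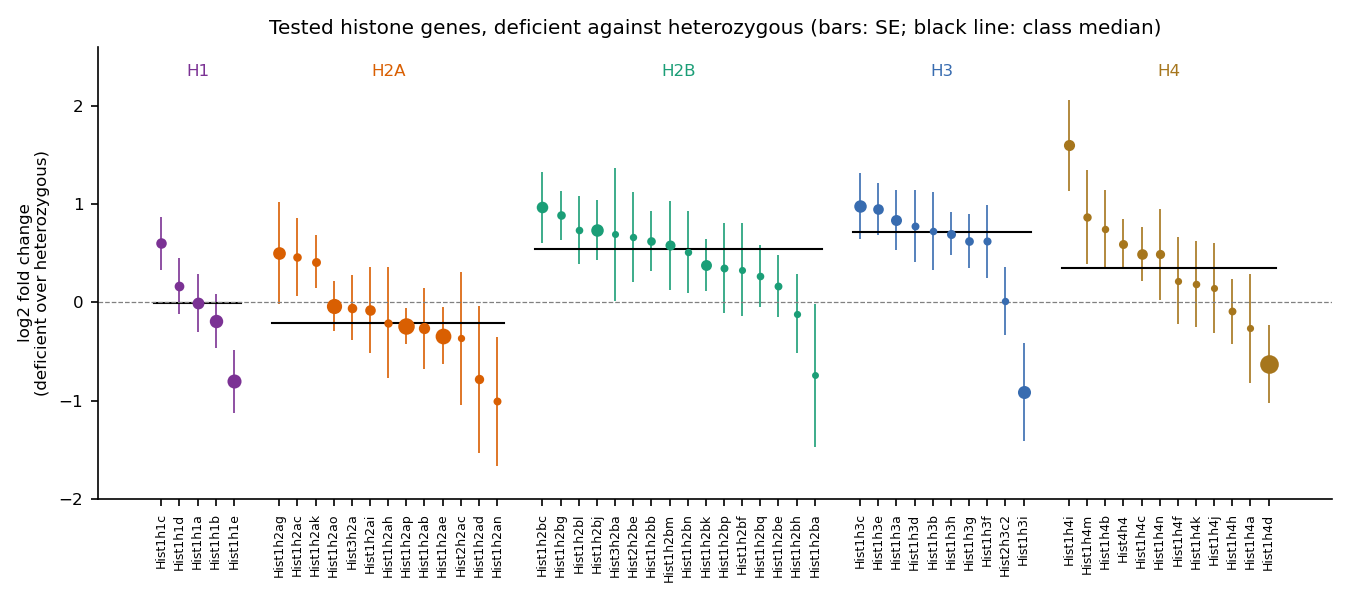
Log2 fold change of each tested member in deficient against heterozygous libraries with its SE, by class, with the class median as a black line and larger points for higher mean CPM. Points of H2B and H3 lie mostly above 0, and the largest points of H1, H3 and H4 lie below it.

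In H1, H3 and H4 the gene with the most reads had a lower mean in deficient than in heterozygous libraries, while the other genes of its class together did not. None of these leading genes was called in that comparison. The sums of the other genes were not tested, and gene and rest were not tested against each other. Hist1h4d (chromosome 13, 23581598 to 23582735, plus strand, 1 exon) stood at 84.0, 100.4, 81.5 and 42.3 CPM in deficient oocytes, 112, 177, 38.2 and 149 CPM in heterozygous oocytes and 91.8 and 71.6 CPM in wildtype oocytes. Only 3.67% of its stretches were shared, and it held 77.2% ± 2.41 of the H4 reads in deficient oocytes, 87.2% ± 8.10 in heterozygous oocytes (SD, n = 4 each) and 84.0% ± 0.516 in wildtype oocytes (SD, n = 2). The other H4 genes together stood at 22.3 ± 6.23 CPM in deficient oocytes, 13.4 ± 0.915 CPM in heterozygous oocytes (SD, n = 4 each) and 15.5 ± 2.13 CPM in wildtype oocytes (SD, n = 2). The log2 fold change of Hist1h4d in deficient against heterozygous libraries was -0.63 (SE 0.40, edgeR adjusted p = 0.519), which the spread between libraries does not separate from 0.

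Hist1h3i (chromosome 13, 21782960 to 21783370, minus strand) stood at 12.6, 4.48, 9.76 and 3.79 CPM in deficient oocytes, 14.499, 21.3, 3.94 and 17.9 CPM in heterozygous oocytes and 14.1 and 9.63 CPM in wildtype oocytes. The lowest values among deficient and among heterozygous oocytes were those of the libraries low in Lars2. It held 19.0% ± 7.52 of the H3 reads in deficient oocytes, 43.3% ± 14.4 in heterozygous oocytes (SD, n = 4 each) and 32.7% ± 0.771 in wildtype oocytes (SD, n = 2). The other H3 genes summed to 30.7 ± 4.03 CPM in deficient oocytes, 17.1 ± 6.32 CPM in heterozygous oocytes (SD, n = 4 each) and 24.3 ± 5.67 CPM in wildtype oocytes (SD, n = 2). Its log2 fold change in deficient libraries was -0.91 against heterozygous (SE 0.50, edgeR adjusted p = 0.477) and -0.63 against wildtype (SE 0.60, edgeR adjusted p = 1.00), and the second was 0.0381 with log2 Lars2 as a covariate.

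Hist1h1e, a linker histone gene (chromosome 13, 23620629 to 23622558, minus strand), stood at 16.1, 11.1, 14.3 and 7.45 CPM in deficient oocytes, 18.3, 28.3, 10.5 and 28.2 CPM in heterozygous oocytes and 17.1 and 15.7 CPM in wildtype oocytes. Its transcript overlaps Hist1h2be and Gm11398 on the same strand, so their reads may be mixed. Heterozygous 3 alone of its group lay within the deficient range. Its log2 fold change against heterozygous was -0.81 (SE 0.32, edgeR adjusted p = 0.392), and it was the 1 member of the 12 at an unadjusted p under 0.05 that was lower. The other H1 genes averaged 25.5 ± 5.43 CPM in deficient oocytes, 25.1 ± 7.11 CPM in heterozygous oocytes (SD, n = 4 each) and 29.8 ± 7.27 CPM in wildtype oocytes (SD, n = 2).

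**Figure D4:**
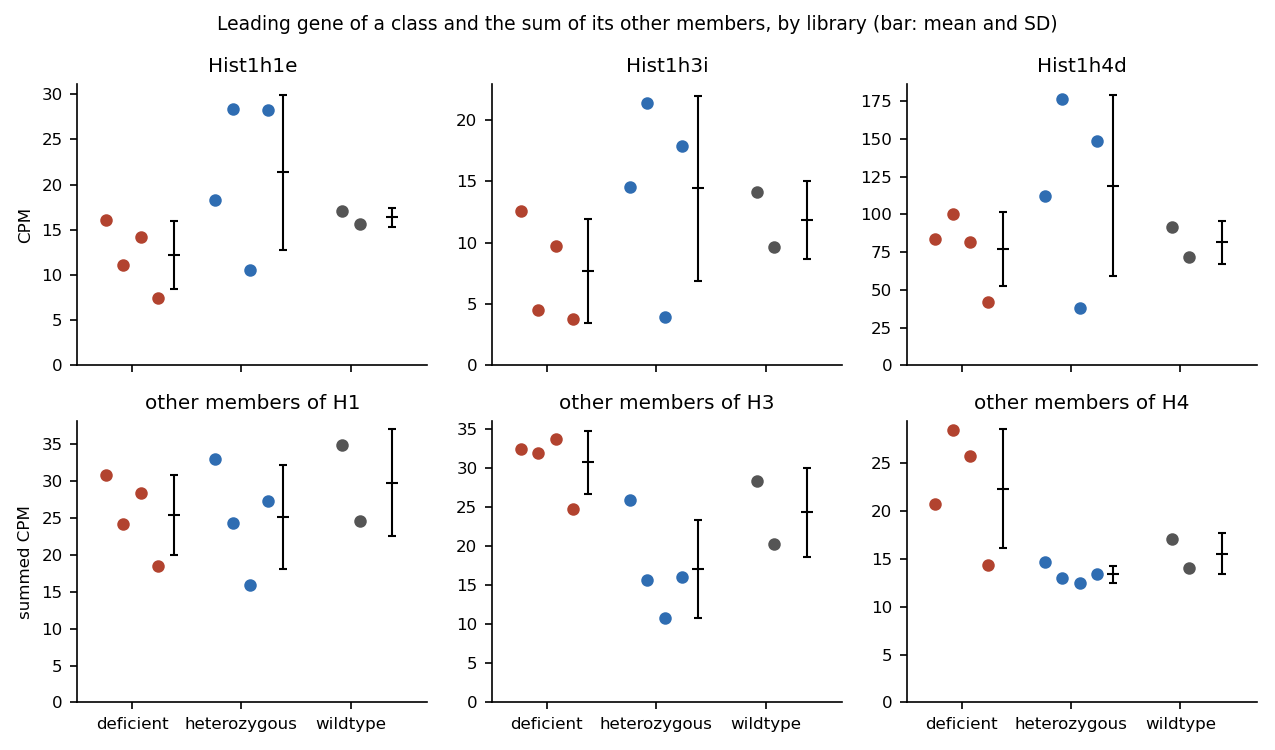
CPM of the most abundant gene of H1, H3 and H4 in every library (top) and the summed CPM of the other genes of its class (bottom), with deficient, heterozygous and wildtype libraries from left to right. The mean of Hist1h4d is 77.1 CPM in deficient oocytes and 119 CPM in heterozygous libraries, and that of the other H4 genes is 22.3 and 13.4 CPM.

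Divergent pairs of 1 H2A and 1 H2B gene, with starts 176 to 306 bases apart, numbered 12. H2A was the higher partner in 10 pairs by TPM and in 8 by CPM. In the pair whose shared promoter is printed above, Hist1h2ae stood at 39.9, 25.7, 28.2 and 21.4 CPM in deficient oocytes, 36.1, 47.4, 20.9 and 41.0 CPM in heterozygous oocytes and 40.2 and 22.0 CPM in wildtype oocytes, with overlap throughout. Its log2 fold change in deficient against heterozygous libraries was -0.34 (SE 0.29, edgeR adjusted p = 0.616), against 0.89 for Hist1h2bg. In all 10 pairs with both genes tested the fold change of the H2B gene lay above that of the H2A gene. This count is a description, since the pairs share libraries and near-identical copies share reads.

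Against wildtype libraries, deficient libraries had no called member (0% of all tested genes were called), 3 members at an unadjusted p under 0.05 (3.66% of all tested genes) and none called by DESeq2 (0.00492% of all tested genes were). The log2 fold change was above 0 for 37 of 56, with a median of 0.15 against 0.00 over all tested genes. By class it was 0.05 in H1, -0.17 in H2A, 0.33 in H2B, 0.34 in H3 and 0.50 in H4. Wildtype had only 2 libraries, and the median was -0.05 (26 of 56 above 0) without wildtype 2 and 0.46 (44 of 56) without wildtype 1. With log2 Lars2 as a covariate the median was 0.40 (45 of 56) and that of H2A was 0.19 (9 of 13), and with the stage score that of H1 was -0.015. Here too H1 and H2A have no firm direction. Hist1h4c, a core H4 gene, had the largest fold change among members of at least 1 CPM. It stood at 5.07, 6.68, 5.12 and 3.50 CPM in deficient oocytes, 4.02, 2.39, 4.95 and 3.11 CPM in heterozygous oocytes and 2.91 and 2.85 CPM in wildtype oocytes, with a log2 fold change of 0.82 (SE 0.35, edgeR adjusted p = 1.00). Hist1h4c was among the 7 members whose deficient libraries lay wholly above wildtype (6.47% of all tested genes did). Hist1h2bm followed at 0.63 (SE 0.57, edgeR adjusted p = 1.00). Hist1h2ap, at 40.6, 34.8, 39.7 and 30.7 CPM in deficient oocytes and 65.1 and 44.5 CPM in wildtype oocytes, was 1 of 2 members that lay wholly below (6.18% of all tested genes did), the other being Hist1h2be. Among members of at least 1 CPM the lowest fold changes were -0.68 for Hist1h2ah (SE 0.68, edgeR adjusted p = 1.00), which was 0.41 without wildtype 1, and -0.63 for Hist1h3i.

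Against the mean of both fertile genotypes, deficient libraries had no called member (0.00492% of all tested genes were called), 7 members at an unadjusted p under 0.05 (4.31% of all tested genes) and none called by DESeq2 (0.0198% of all tested genes were). Of 56 members 41 were above 0, with a median of 0.32 against -0.01 over all tested genes. The class medians were 0.37 in H2B, 0.60 in H3, 0.39 in H4, 0.07 in H1 and -0.23 in H2A. With log2 Lars2 as a covariate that of H2A was 0.0043 (7 of 13 above 0), and that of H1 was -0.037 with the stage score and -0.0061 with litter date, so the signs of both depend on these terms. Among members of at least 1 CPM the lowest fold changes were -0.77 for Hist1h3i (SE 0.47, edgeR adjusted p = 0.904) and -0.63 for Hist1h2ad (SE 0.71, edgeR adjusted p = 0.909). The comparison shares its deficient libraries with both others, so their values are not independent.

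Heterozygous libraries had no called member against wildtype (0.00492% of all tested genes were called), 3 at an unadjusted p under 0.05 (8.3% of all tested genes) and none called by DESeq2 (2.35% of all tested genes were). Of 56 members 21 were above 0, with a median of -0.19 against 0.02 over all tested genes. The median was 0.15 without wildtype 1, so it has no firm direction. The lowest class median was -0.46, in H3. Hist1h4d had a log2 fold change of 0.54 (SE 0.50, edgeR adjusted p = 0.821) and Hist1h1e of 0.38 (SE 0.40, edgeR adjusted p = 0.840). Hist1h3c stood at -0.64 (SE 0.40, edgeR adjusted p = 0.758). Hist1h4i was among the 5 members whose heterozygous libraries lay wholly below wildtype (6.64% of all tested genes did), and Hist2h3c2 lay wholly above (9.18% did).

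The authors' deposited table of a DESeq2 comparison, whose contrast was not given in the sources used here, listed 58 members. None had an adjusted p under 0.05 in the authors' deposited table (lowest 0.638), where 3 of all 21049 genes had one. Of the 58 members, 9 had a p under 0.05 in the authors' deposited table and 41 had a positive log2 fold change. The matching shares of all genes listed there are not given here. Whether either count sets the members apart from genes at large therefore cannot be told here. In the authors' deposited table Hist1h2bg stood at 0.77, Hist1h4i at 0.88 and Hist1h3e at 0.67 on the log2 scale.

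Along meiotic stage, few members were called. With genotype in the model, the slope on the stage score was called for 2 of 56 members (3.57%), both lower at later stage, where 24.7% of all tested genes were called and 11.8% as lower. At an unadjusted p under 0.05 there were 9 members, all lower, where 36.5% of all tested genes passed and 17.5% as lower. The slope was below 0 for 37 of 56 members. Hist1h3b, a core H3 gene (chromosome 13, 23752267 to 23752886, plus strand), fell by 0.36 on the log2 scale per unit of score (SE 0.10, edgeR adjusted p = 0.0200). It stood at 0.787, 0.498, 0.986 and 0.795 CPM in deficient oocytes, 0.844, 0.312, 0.352 and 0.338 CPM in heterozygous oocytes and 0.694 and 0.519 CPM in wildtype oocytes. Deficient 3 and heterozygous 1, which have the lowest scores, were the highest of their genotypes. Hist1h2bc (chromosome 13, 23684199 to 23692908, plus strand, 2 exons), a core H2B gene, fell by 0.30 per unit (SE 0.09, edgeR adjusted p = 0.0326). It stood at 6.36, 8.60, 10.3 and 6.78 CPM in deficient oocytes, 7.34, 2.03, 2.77 and 4.26 CPM in heterozygous oocytes and 6.74 and 5.15 CPM in wildtype oocytes. Again deficient 3 and heterozygous 1 were the highest of their genotypes.

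Both calls rested on few libraries. Without heterozygous 1 no member was called (657 of all tested genes were), with 0 members at an unadjusted p under 0.05, and the slopes were -0.33 for Hist1h3b and -0.16 for Hist1h2bc (edgeR adjusted p = 0.406 and 0.627). Hist1h3b also lost its call without deficient 2, and Hist1h2bc without deficient 3 or heterozygous 2 (edgeR adjusted p = 0.0512, 0.0638 and 0.0742). Pecam1 of the endothelial and stromal list was also highest in deficient 3 and heterozygous 1, at 373 and 380 CPM, and the part of this in the slopes was not tested. By class the median slope was -0.18 in H3 (10 of 10 below 0), -0.11 in H2B, -0.10 in H1, -0.07 in H2A and 0.01 in H4, against 0.00 over all tested genes. In the same fit 17 of 20 recombination genes were called higher and 16 of 19 pluripotency genes lower, but these lists make up the score.

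Without the 3 libraries low in Lars2 the stage slope was called for 13 members, 9 lower and 4 higher, beside 6691 of all tested genes. Those lower were Hist1h2ao, Hist1h2bm, Hist1h2bc, Hist1h2ag, Hist1h2ab, Hist1h4i, Hist1h3c, Hist3h2a and Hist1h2bj, with slopes of -0.21 to -0.54. Those higher were Hist1h2ad at 0.72, Hist1h2ba at 0.74, Hist1h1e at 0.16 and Hist1h4d at 0.13. Hist1h3b was not among them (-0.34, edgeR adjusted p = 0.0858). With log2 Lars2 as a covariate in all 10 libraries 7 members were called, with Hist1h1e at 0.17 and Hist1h2ba at 0.75 higher and Hist1h3b, Hist1h2bc, Hist1h2ao, Hist1h2bm and Hist3h2a lower, beside 6514 of all tested genes.

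Most members were higher in libraries with more reads counted at Lars2, though few passed the test. By deposited TPM Lars2 stood at 21.1, 20.9 and 24.0 in deficient 2, deficient 4 and heterozygous 3, and at 16.2 to 28.4 in the others. Gm23935 stood at 454, 141 and 87.4 CPM in the same libraries, and at 4146 to 5068 CPM in the others. Why Lars2 differed in CPM but not in TPM was not tested, so Lars2 CPM are not read as its mRNA level. The slope on log2 Lars2 CPM was above 0 for 50 of 56 members, with a median of 0.12 against 0.00 over all tested genes, of which 10269 were above 0. It was called for 2 members (3.57%), both higher, where 3.54% of all tested genes were called and 3.2% as higher, so the share called was that of genes at large. At an unadjusted p under 0.05 there were 12 members, all higher, where 18% of all tested genes passed and 11.2% as higher. The class medians were 0.19 in H1, 0.14 in H2A, 0.10 in H2B, 0.14 in H3 and 0.11 in H4. Without heterozygous 3 the slope was above 0 for 43 of 56 with a median of 0.08.

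The called members were genes that led their class in reads. Hist1h3i rose by 0.48 on the log2 scale per doubling of Lars2 CPM (SE 0.06, edgeR adjusted p = 0.00225). Its values in the libraries low in Lars2 were 4.48 and 3.79 CPM in deficient 2 and 4 and 3.94 CPM in heterozygous 3, against 9.63 to 21.3 CPM in the other 7. Hist1h1e rose by 0.27 (SE 0.05, edgeR adjusted p = 0.0240), at 11.1, 7.45 and 10.5 CPM in the same 3 libraries against 14.3 to 28.3 CPM in the other 7. By deposited TPM Hist1h1e did not separate these libraries, at 10.3, 4.22 and 1.08 TPM against 2.09 to 12.8 TPM in the other 7. Hist1h4d had a slope of 0.31 (SE 0.10, edgeR adjusted p = 0.134), at 100.4, 42.3 and 38.2 CPM in the 3 libraries against 71.6 to 177 CPM in the others, with deficient 2 among them. The slope of Hist1h3i was called in every alternative tried, whereas that of Hist1h1e lost its call without any 1 of deficient 1, deficient 4, heterozygous 3, heterozygous 4, wildtype 1 or wildtype 2 (edgeR adjusted p = 0.0529 to 0.295) and in limma on TPM. Heterozygous 3 had the lowest CPM of the 10 libraries for 27 of 56 tested members and the highest for none. Deficient 4 had the lowest for 11. The matching counts over all tested genes are not given here, so whether these counts are particular to the members cannot be told.

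**Figure D5:**
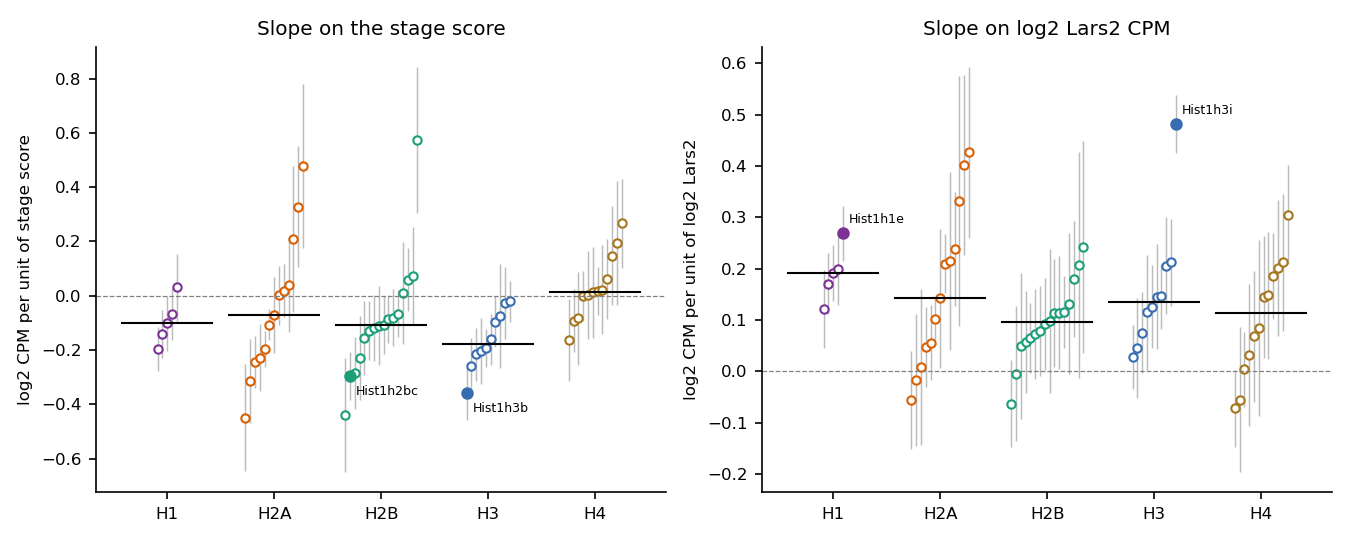
Slope of each tested member on the stage score and on log2 Lars2 CPM, on the log2 scale with its SE, by class; filled points have an adjusted p under 0.05. Slopes on Lars2 lie above 0 for 50 of 56 members, and the filled points there are Hist1h3i and Hist1h1e.

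Genes around histone supply were read in the same fits. In deficient against heterozygous libraries no gene was called among 11 replacement histone genes, 20 histone mRNA processing genes, 15 histone chaperone genes or 28 S-phase genes. Their medians were 0.38, 0.06, 0.16 and 0.13. Of the replacement histones, which are also made outside S phase, 10 of 11 were above 0, and H2afz stood at 380 ± 39.3 CPM in deficient oocytes, 285 ± 31.1 CPM in heterozygous oocytes (SD, n = 4 each) and 373 ± 41.3 CPM in wildtype oocytes (SD, n = 2). The exception was the linker variant gene H1fx, at 4.92 ± 2.38 CPM in deficient oocytes, 12.4 ± 3.98 CPM in heterozygous oocytes (SD, n = 4 each) and 2.69 ± 1.14 CPM in wildtype oocytes (SD, n = 2), with a log2 fold change of -1.33 against heterozygous (SE 0.38, edgeR adjusted p = 0.346). Npat, which encodes the coactivator of histone gene transcription at histone locus bodies, had a log2 fold change of -0.61 (SE 0.22, edgeR adjusted p = 0.379).

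On the stage score genes of each of these lists were called. Of 28 S-phase genes 14 were called, 11 lower and 3 higher, where 24.7% of all tested genes were called. Ccna2, the S and G2 cyclin, fell by 0.28 per unit (SE 0.03, edgeR adjusted p = 0.000255), and Ccne2 rose by 0.61 (SE 0.07, edgeR adjusted p = 0.000208). Of 20 processing genes 5 were called, with Npat at 0.23 (SE 0.05, edgeR adjusted p = 0.00979) among 4 higher. Of 15 chaperone genes 2 were called higher, with Asf1b, an H3 and H4 chaperone, at 0.40 (SE 0.05, edgeR adjusted p = 0.000403), and 3 lower, with Ssrp1, a FACT subunit, at -0.21 (SE 0.03, edgeR adjusted p = 0.000873). The replacement histone genes Cenpa, at -0.15 (SE 0.03, edgeR adjusted p = 0.00871), and H2afy, at -0.18 (SE 0.04, edgeR adjusted p = 0.00928), were called lower. The shares called were 50% of S-phase genes, 25% of processing genes, 33.3% of chaperone genes and 18.2% of replacement histone genes. The share over all tested genes was 24.7%, so that of the processing genes was near it. On log2 Lars2 no replacement histone was called, 8 of 11 lay below 0, and their median was -0.02. No chaperone gene was called either, whereas 1 of 20 processing genes and 1 of 28 S-phase genes were called higher, where 3.54% of all tested genes were called. They were Sympk, which encodes the scaffold protein symplekin of the cleavage complex, at 0.24 (SE 0.04, edgeR adjusted p = 0.0143), and Pole, which encodes the catalytic subunit of DNA polymerase epsilon, at 0.14 (SE 0.03, edgeR adjusted p = 0.0367).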

How the data were processed

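RNA was measured in 10 bulk libraries of sorted oocytes, grouped by the genotype in the labels. The submitters' processing notes name Trim Galore 0.5.0, FastQC 0.11.5, HISAT2 2.1.0 with GRCm38, SAMtools 1.9, Subread 1.6.2 and StringTie 1.3.3b. The deposited gene counts are whole numbers, and the deposited TPM are levels per transcript length. The treatment of reads that match several genes, the strand setting and the annotation are not stated there. The authors' deposited DESeq2 table holds, by its column names, a signal (the mean of normalized counts), the log2 fold change and its standard error, a statistic (score), a p-value and its adjusted form.

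The counts were used as deposited. Genes were kept by filterByExpr in edgeR 4.0.16 (R 4.3.3), scaled by TMM and fitted over all 10 libraries with 3 genotype groups and, for the slopes, the stage score or log2 Lars2 CPM as a further term. P-values came from edgeR's quasi-likelihood test with Benjamini-Hochberg adjustment over 20317 genes, called under 0.05. SE was derived from the F statistic. Levels in log2 CPM used a prior count of 2. Class sums, stem-loops, shared stretches and promoter motifs were computed with Python 3.11.15 and pandas 2.3.3, figures with matplotlib 3.10.9. Tests were checked on simulated data. Every 2 libraries differed by more than counting error (lowest chi-square per degree of freedom 10.58). Library totals of 28949924 to 44166320 reads limit the precision of members with few reads, and limits from counts cover counting error only.

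Named genes were drawn from the 4 of each class with the highest mean TPM, the called members and the testis histone genes. They were also drawn from the 2 members per direction and genotype comparison with the largest fold change among those of at least 1 CPM. From each context list they were drawn from up to 3 called genes, or the 2 with the smallest p. Not every gene that this rule gave is printed. Hist1h4m, Hist1h4n, Nelfe and Cstf2 are among those left out. Hist1h2ae, Hist1h2af, Hist1h2be, Hist1h2bg against heterozygous libraries, Hist1h3e and the genes named for groups that did not overlap or for calls under an alternative were chosen after their values were seen. The members and lists were chosen with earlier results of these data known. Alternatives covered scaling, the filter, DESeq2 1.42.0, limma 3.58.1 on log2 TPM with pseudocounts of 0.1 and 1, litter date, replicate number, stage score and Lars2 as terms, and left-out libraries.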

Additional observations from a re-analysis of the deposited data

Results flagged for a closer look

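A library lay apart from the other 3 of its genotype, by Dixon's criterion at the 95% level, in 6 of 62 searches over class sums and named members, and chance alone does so in about 1 of 20 such groups. The sum over all members was 239.9 CPM in deficient 4, against 361 to 368 CPM in the other deficient libraries. It was 213.5 CPM in heterozygous 3, against 413 to 428 CPM in the other heterozygous libraries. The H1 sum was 26.4 CPM in heterozygous 3, against 51.3 to 55.5 CPM in the others. These 2 libraries are low in Lars2, and deficient 2, which is also low, did not stand apart.

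Hist1h3a stood at 3.71 CPM in deficient 4, against 6.64 to 6.95 CPM in the other deficient libraries, and at 5.04 CPM in heterozygous 1, against 2.66 to 3.01 CPM in the other heterozygous libraries. Hist1h3b stood at 0.844 CPM in heterozygous 1, against 0.312 to 0.352 CPM in the others. Heterozygous 1 had the lowest stage score of its genotype, at -2.15.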

How the results depend on the processing

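Comparisons with wildtype libraries and with both fertile genotypes called 0 members under every alternative run, and so did the comparison with heterozygous libraries except for 3 members without heterozygous 1 (0 to 3 over the left-out libraries) and 2 with DESeq2 (0.837% of all tested genes). The stage slope called 2 members (24.7% of all tested genes), against 7 with log2 Lars2 as a covariate (32.1%), 13 without the 3 libraries low in Lars2 (34%), 0 with limma on log2 TPM at pseudocounts of 0.1 and 1 (19.7% and 19.8%), and 0 to 4 when 1 library was left out. In this slope and in the comparison with heterozygous libraries, calls over all tested genes also changed without heterozygous 1, as given above. Member counts with a library left out therefore do not bear on the members alone. The Lars2 slope called 2 members (3.54% of all tested genes), against 4 with the stage score as a covariate (11.2%), 6 with DESeq2 (8.74%), 1 with limma at the same pseudocounts (1.33% and 1.19%), and 1 to 3 when 1 library was left out. Signs changed for Hist1h2ah in deficient against wildtype libraries (-1.30 to 0.41 when 1 library was left out, the last without wildtype 1), Hist1h3i in the same comparison (0.0381 with log2 Lars2 as a covariate) and Hist1h2ap in deficient against heterozygous libraries (0.0398 and 0.0397 with limma at pseudocounts of 0.1 and 1). The cause was not tested. Replicate numbers did not pair the libraries, since deviations of same-numbered deficient and heterozygous libraries correlated at -0.17, 0.38, -0.42 and -0.22 over genes, and with the replicate block 0 members were called and the median stayed at 0.37. Depth limits the members with few reads, 11 of which were not tested. With 1 wildtype library left, edgeR assumes it to vary like the other groups.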
